A study of Mus musculus with 6 samples.

Results

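The genes described here encode the proteins of the cytosolic ribosome. They were taken from the deposited RNA-seq table as rows of biotype protein_coding whose symbol is Rpl or Rps with a number, or Rpsa, Rplp0, Rplp1 or Rplp2, with a mean value of at least 10 over the 6 libraries. The symbols picked out 76 of 22706 rows. In 1 of them, named Rpl24, the identifier and position (ENSMUSG00000022601, chr16:55973883-56008913) are those of Zbtb11, a zinc-finger gene next to Rpl24, and it was left out, which leaves 75 members, 45 of the large (60S) and 30 of the small (40S) subunit. The gene identifier of Rpl24 itself stands on a row named RPL24, with values of 27 and 23 in control, 5 and 10 in mdx, with 33 and 30 in Sirt6mKO/mdx, and was not a member under the rule. All 75 members had a mean value of at least 5 and were tested. Fau and Rps3a1, whose products are also ribosomal proteins, do not match the symbols and are described separately where measured.

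The libraries hold total RNA, depleted of rRNA, from muscle stem cells (MuSCs) sorted by FACS from limb and trunk muscle and used without culture. There were 2 libraries in each of 3 groups, all labelled C57BL/6: wild type mice (control), mdx mice, which lack dystrophin, and mdx mice whose Sirt6 was deleted in the Pax7 lineage (Sirt6mKO/mdx). The mdx allele came from a C57BL/10ScSn line kept on C57BL/6; the floxed Sirt6 exons were removed by a constitutive Cre driven by the Pax7 promoter, which acts in the whole lineage that expresses Pax7 and not in adult MuSCs alone, and a ROSA26-YFP reporter was crossed in. The study describes adult male mice, and 2 biological replicates per group. Nothing shows that each library is a separate animal, so the p-values rest on the spread between these libraries. For each gene that spread was moderated towards a prior variance fitted over all tested genes. The values are reads divided by one size factor per library and rounded, here called normalised values, and sum to between 5564142 and 9626453 per library.

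The ribosome joins rRNA with the proteins of its 2 subunits, and each protein is needed in about the same amount, so these genes are usually expressed together and at high levels. Their mRNAs typically begin with a 5′ terminal oligopyrimidine (TOP) tract, a cytosine followed by a run of pyrimidines, which couples their translation to the mTORC1 kinase through LARP1. Many of the genes carry small nucleolar RNAs (snoRNAs) in their introns, and many have retrocopies in the genome. Quiescent MuSCs have a low rate of protein synthesis that rises as they become activated.

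The start of the RefSeq transcript is the place where a TOP tract would lie, so the 30 bases around it, 15 on each side (GRCm38.p6), were read for the 55 members with a RefSeq start. A tract of at least 5 pyrimidines that opens with a C lay exactly at the start in 13 of 55 members (23.6%) and within 5 bases of it in 27 (49.1%). Over all 27025 genes of the same table those shares were 3.01% and 21.2%. The windows below are from members with large changes or with a clear tract. Capitals mark the pyrimidine tract, counted from no further than 5 bases before the start. Pyrimidines further upstream, as in Rpl35, are in lower case. The strand is the one that is transcribed, and the letters are read 5′ to 3′.
Rplp2, chr7:141447636-141447665, plus strand: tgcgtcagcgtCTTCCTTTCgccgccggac
Rpl35, chr2:39005117-39005146, minus strand: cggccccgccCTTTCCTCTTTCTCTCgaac
Rpl18, chr7:45718056-45718085, plus strand: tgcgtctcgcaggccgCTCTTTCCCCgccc
Rpl28, chr7:4792950-4792979, plus strand: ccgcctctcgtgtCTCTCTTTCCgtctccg
Rps18, chr17:33955651-33955680, minus strand: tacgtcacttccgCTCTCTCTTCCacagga
Rpl39, chrX:37085208-37085237, minus strand: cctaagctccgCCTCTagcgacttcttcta
Rps24, chr14:24490663-24490692, plus strand: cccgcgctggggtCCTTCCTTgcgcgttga
The first 5 genes were called lower in mdx than in control; Rpl39 was called higher in Sirt6mKO/mdx than in control, and Rps24 had the highest log2 fold change in mdx and was not called. These windows were picked, so they say nothing of how often a tract occurs. Of all 55 members with a start, 6 of the 27 with a tract near it and 7 of the 28 without one were called lower in mdx, against 7.34% of all tested genes. These classes rest on the annotated start and the 5 bases on each side, so a tract that opens further away was not counted. Members without a tract by this rule may still have TOP mRNAs.

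The members as a family made up 3.15% and 3.37% of all normalised values in the control libraries. They made up 2.83% and 1.90% in mdx, and 1.59% and 1.73% in Sirt6mKO/mdx. The control and mdx libraries did not overlap in this share, and neither did control and Sirt6mKO/mdx. As a share of protein_coding values the same sums were 4.96% and 4.28% in control, 4.55% and 2.89% in mdx, with 3.998% and 4.04% in Sirt6mKO/mdx. On that base both Sirt6mKO/mdx libraries were also below both control libraries, the mdx libraries lay on both sides of the Sirt6mKO/mdx libraries, and 1 mdx library lay between the control libraries. Rows of other biotypes took 36.6% and 21.2% of all values in control, 37.9% and 34.1% in mdx, with 60.3% and 57.2% in Sirt6mKO/mdx. The larger share of other RNA in Sirt6mKO/mdx moves with the low share of all values there, and its part in it was not tested.

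**Figure D1:**
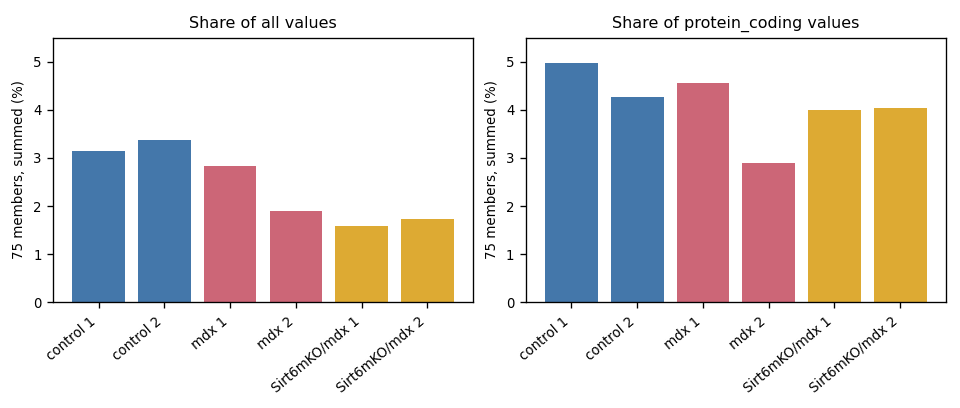
Sum of the 75 members in each of the 6 libraries as a percent of all normalised values (left) and of the protein_coding values (right); bars are single libraries coloured by group. On the left both Sirt6mKO/mdx libraries stand at 1.59% and 1.73%, while on the right they stand at 3.998% and 4.04%, below both control libraries at 4.96% and 4.28%.

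The 2 mdx libraries differed more than those of the other groups. All 75 members had a higher value in mdx replicate 1 than in mdx replicate 2, with a median ratio of 1.75 and a range from 1.04 (Rplp2) to 2.91 (Rpl35). The median ratio over all tested genes was 1.01 in the same pair. Between the control libraries the median ratio of the members was 1.13, and between the Sirt6mKO/mdx libraries it was 0.961. For the main calls and medians over all 75 members in comparisons with mdx, the effect of leaving out each mdx library is therefore described. Other counts over the members, and those over classes of members, are given for both libraries together.

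Each member was compared between groups with limma on log2(value + 1), fitted to all 15915 genes with a mean of at least 5. A gene was called when the Benjamini-Hochberg adjusted p over all tested genes was at most 0.05 and the absolute log2 fold change at least 1. In mdx compared with control, 17 of 75 members were lower and 0 were higher, against 7.34% lower and 6.89% higher among all tested genes. 61 members had a negative and 14 a positive log2 fold change, and the median was -0.50 (quartiles -0.99 and -0.11), against 0.00 over all tested genes. An unadjusted limma p under 0.05 was found for 33 of 75 members, against 4930 of all 15915 tested genes. In 33 members both mdx libraries were below both control libraries and in 3 both were above; among all tested genes those shares were 28.3% and 28.7%. Without mdx replicate 1, 27 members were called lower, against 4.13% of all tested genes, and the median was -0.88. Without mdx replicate 2 the share of members called lower was near that of all tested genes. Of the 17, only Rplp2, Rpl35, Rpl18 and Rpl28 then kept the call. Without control replicate 1, 7 were lower, against 4.25%. With one prior variance for all genes in place of a trend 1 member was called lower, Rplp2, against 2.26% of all genes, and with no minimum mean 4 were, against 2.54%.

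The 17 members that fell in mdx comprised 11 proteins of the large and 6 of the small subunit. Rplp2 and Rplp1 encode the acidic proteins of the stalk, which recruits the translation factors to the large subunit. Rplp2 had values of 6352 and 4681 in control against 999 and 956 in mdx. Its log2 fold change was -2.48 (SE 0.28; limma adjusted p 2.91e-05). The 2 mdx values of this gene were nearly equal, and it was called lower in 20 of 20 alternative fits. Rplp1, at 2603 and 3022 in control against 1362 and 1061 in mdx, had a log2 fold change of -1.22 (limma adjusted p 0.00598). The third stalk gene, Rplp0, holds the others on the ribosome and serves as a reference gene, under the name m36b4, in the RT-qPCR of the study. Its values were 8384 and 11075 in control, 6654 and 3558 in mdx, with 3889 and 5025 in Sirt6mKO/mdx. The mdx and the Sirt6mKO/mdx libraries were below both control libraries, but the log2 fold changes of -0.99 and -1.12 had adjusted p of 0.0928 and 0.0826 by limma and were not called.

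Of the other large subunit members, Rpl35 had 559 and 470 in control against 221 and 76 in mdx, and Rpl18 had 4391 and 3919 against 1601 and 905. Their log2 fold changes were -1.97 (SE 0.39) and -1.78 (SE 0.30), with limma adjusted p of 0.00291 and 0.000869. Rpl28, at 1464 and 1459 in control against 629 and 386 in mdx, fell by 1.57 on the log2 scale (limma adjusted p 0.000983). These 3 genes did not overlap between the groups. Rpl23a, whose product lies at the exit of the peptide tunnel, also fell by 1.57. Its values were 372 and 307 in control against 158 and 81 in mdx (limma adjusted p 0.0051). Rpl9, Rpl36, Rpl13, Rpl37a and Rpl10 were lower by 1.08 to 1.28 on the log2 scale. Rpl9 had 7693 and 5291 in control against 3869 and 1794 in mdx, and Rpl13 had 2539 and 2287 against 1472 and 735. Rpl36 had 775 and 842 in control against 474 and 239 in mdx, and Rpl37a had 569 and 506 against 286 and 193. In each of these 4 genes the mdx libraries lay below both control libraries. Rpl10, which completes the 60S subunit late in its assembly, had 2222 and 2238 in control against 1628 and 686 in mdx. In the small subunit, Rps2, Rpsa, Rps19, Rps16 and Rps18 were among those called lower. Rps2, which lies near the entry of the mRNA channel, had 4645 and 6120 in control against 2709 and 1526 in mdx (log2 fold change -1.39, limma adjusted p 0.0111). Rps16 had 2923 and 2003 against 1466 and 830, and Rps18 had 3810 and 3874 against 2471 and 1271. Rpsa, the laminin receptor protein of the 40S subunit, had 3699 and 3715 in control against 2192 and 1117 in mdx. Rps19, mutated in Diamond-Blackfan anaemia, had 3134 and 3175 against 1810 and 987, and its log2 fold change was -1.24 (limma adjusted p 0.0119).

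**Figure D2:**
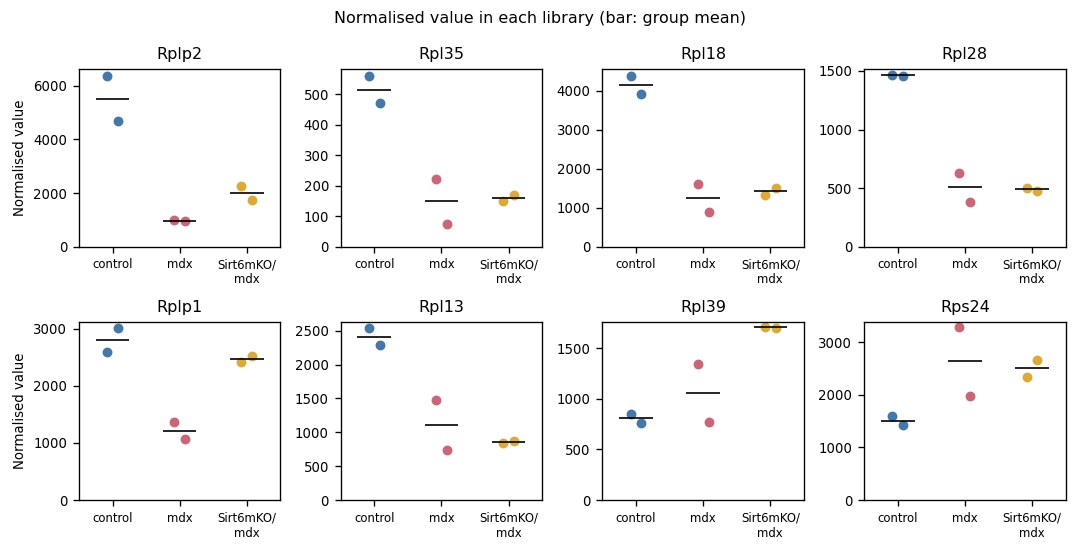
Normalised value of 8 members in each library, with a bar at the mean of the 2 libraries of a group and each axis starting at 0. Rplp2 stands at 999 and 956 in mdx, Rplp1 at 2411 and 2530 in Sirt6mKO/mdx, and Rpl39 at 1713 and 1705 there.

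At the other end, the 5 members with the highest log2 fold change in mdx were Rps24, Rpl22, Rpl26, Rpl7a and Rpl39. Without mdx replicate 1 the values of Rpl26 and Rpl39 turned to -0.091 and -0.062. Rps24 had 1592 and 1430 in control, 3293 and 1980 in mdx, with 2346 and 2666 in Sirt6mKO/mdx, with both mdx values above both control values. Its log2 fold change in mdx was 0.76 (SE 0.29), with an adjusted p of 0.0904, and it was not called. Rpl22 had 1908 and 1696 in control against 3153 and 2071 in mdx, with a log2 fold change of 0.51 (limma adjusted p 0.252). Rpl5 and Rpl11, which with 5S rRNA restrain MDM2 and so stabilise p53, had log2 fold changes of -0.072 and -0.99 in mdx (limma adjusted p 0.894 and 0.0551). Rps6, the substrate of S6 kinase, had 906 and 888 in control against 1217 and 669 in mdx, with a log2 fold change of 0.01.

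To ask which members departed from the common level of the family, the median log2 value of the members was subtracted in each library and the fit repeated. Among all genes 14% were then higher and 2.28% lower in mdx than in control, since the family itself was low. Of the members, Rplp2 was still called lower, by -1.80 (limma adjusted p 0.00392), and Rps24 was called higher, by 1.44 (limma adjusted p 0.0247). No other member departed in mdx relative to control.

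In Sirt6mKO/mdx compared with mdx, 2 members were called higher, Rplp1 and Rplp2, and none lower, against 5.62% higher and 2.54% lower among all tested genes. Rplp1 went from 1362 and 1061 in mdx to 2411 and 2530, and Rplp2 from 999 and 956 to 2256 and 1757. The log2 fold changes were 1.04 (SE 0.27) and 1.03 (SE 0.28), with limma adjusted p of 0.0254 and 0.0333. Both genes were also among those lower in mdx than in control, and the mdx libraries serve in both comparisons. Each of the 2 was called in 10 of 20 alternative fits. An unadjusted limma p under 0.05 was found for 14 of 75 members, no larger a share than the 4004 of 15915 tested genes. Without either mdx or either Sirt6mKO/mdx library, with no minimum mean, or with one prior variance, 0 were called higher. With one prior variance 0 of all 15915 genes were called in this comparison. Rplp2 in Sirt6mKO/mdx was still below control, by 1.45 on the log2 scale (limma adjusted p 0.00482). Rplp1, at -0.18 against control (limma adjusted p 0.729), was not called, although both of its Sirt6mKO/mdx values were below both control values.

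Over the whole family the difference between Sirt6mKO/mdx and mdx was small in the values as deposited. The median log2 fold change was 0.17, against 0.02 over all tested genes, with 47 members above 0 and 28 below. In 21 members both Sirt6mKO/mdx libraries exceeded both mdx libraries and in 7 both were below; over all tested genes the shares were 28.8% and 27.2%. The members with the highest values, next to the 2 called, were Rps28, Rpl41 and Rps14. Rps14 had 7001 and 3784 in mdx and 8695 and 11488 in Sirt6mKO/mdx, a log2 fold change of 0.96 (limma adjusted p 0.146). Rpl41, the smallest of the ribosomal proteins, reached 0.99 on the log2 scale (limma adjusted p 0.0432), and Rpl38 0.95 (limma adjusted p 0.0419), so both passed on p and missed the size limit of 1. Rps28 had 475 and 312 in mdx against 1069 and 585 in Sirt6mKO/mdx, with its control libraries at 624 and 299. Among the lowest were Rpl4, Rpl21, Rpl14 and Rpl29, with log2 fold changes from -0.99 to -0.62, and no member was called lower. Without mdx replicate 1 the value of Rpl29 turned to 0.14. Rpl4 had 12189 and 8923 in mdx against 4507 and 6147 in Sirt6mKO/mdx, and its control libraries had 7062 and 10442. Without mdx replicate 1 the median rose to 0.61 and without mdx replicate 2 it was -0.25. With libraries scaled to equal totals, 12 members were called lower and none higher, which is no larger a share than the 18.4% of all genes called lower; the median was -0.46, and that of all tested genes -0.58. Relative to the family no member was called in either direction, against 1.97% higher and 0.936% lower among all genes.

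In Sirt6mKO/mdx compared with control, 11 members were lower and 1 was higher, against 2.68% and 5.19% among all tested genes. The members' median was -0.46, against 0.01 over all tested genes, with 54 below 0 and 21 above. An unadjusted limma p under 0.05 was found for 32 of 75 members, against 3828 of 15915 tested genes. Both Sirt6mKO/mdx libraries were below both control libraries in 44 members and above in 8; among all tested genes the shares were 25.3% and 26.3%. Without Sirt6mKO/mdx replicate 1 or 2, 2 and 0 members were called lower, against 0.66% and 0.289% of all tested genes. Without control replicate 1 or 2, 5 were lower in each case, against 2.9% and 0.999%. Scaled to equal totals, 39 were lower and 0 higher, against 16.9% of all genes lower, and relative to the members' median 0 were lower. With one prior variance or no minimum mean, 0 were called in either direction, and among all genes 0.138% and 0.231% were called lower. Of the 11, 9 were also lower in mdx (81.8% of these 11 and 52.9% of the 17 lower in mdx), and the 2 comparisons share the control libraries. Of the members called lower here and not in mdx, Rpl6 had 2273 and 2599 in control, 2075 and 1125 in mdx, with 1193 and 1117 in Sirt6mKO/mdx (log2 fold change -1.07, limma adjusted p 0.0347). Both of its mdx values were also below both control values, at a log2 fold change of -0.67 (limma adjusted p 0.138).

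Rpl35, Rpl28, Rpl18 and Rpl13 were among the lowest members, with log2 fold changes of -1.68, -1.58, -1.54 and -1.49. Rpl13, at 2539 and 2287 in control, had 836 and 873 in Sirt6mKO/mdx (limma adjusted p 0.00676), and the groups did not overlap. Rpl39, on the X chromosome, encodes a small protein of the peptide exit tunnel and was the only member called higher. It had 850 and 766 in control, 1346 and 773 in mdx, with 1713 and 1705 in Sirt6mKO/mdx, a log2 fold change of 1.08 (SE 0.28; limma adjusted p 0.0257). It was called in 12 of 20 alternative fits, and relative to the family it was the only member called higher, at 1.49 (limma adjusted p 0.0367), against 5.53% higher and 0.402% lower among all genes. Rpl7a (3625 and 4691 in control, 10656 and 6676 in Sirt6mKO/mdx), Rps28, Rpl22 and Rps24 had the next highest log2 fold changes, from 1.03 to 0.73, and none was called.

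**Figure D3:**
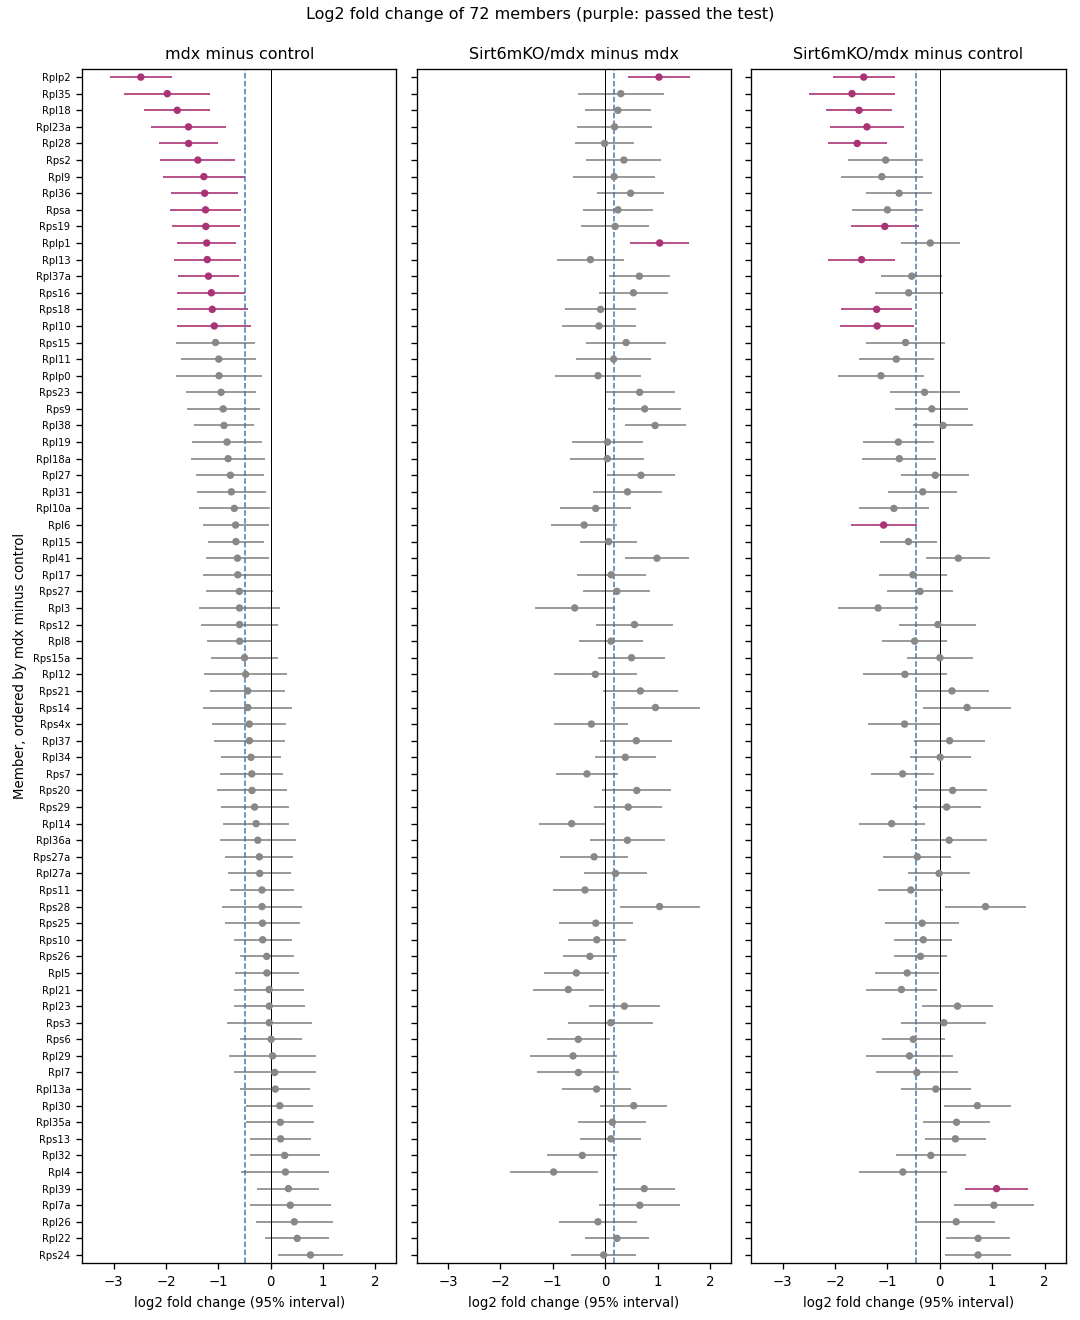
Log2 fold change of 72 of the 75 members in the 3 comparisons, with its 95% interval and ordered by the mdx to control difference; purple members passed the test, and the dashed line is the median of all 75. In mdx minus control 16 of those shown are purple, all below 0, and in Sirt6mKO/mdx minus mdx 2 are, Rplp2 and Rplp1.

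The 4 members on the X chromosome need a caution about sex. Xist, the RNA of the inactive X, had 16772 and 12950 in control and between 7 and 34 in the other libraries, while Ddx3y, on the Y chromosome, had 3 and 8 in control and between 1024 and 1767 elsewhere. The study describes male mice, which these control values do not match, and sex and group cannot be told apart in any comparison with control. Rpl10 was lower and Rpl39 was higher as given above. Rps4x had 4284 and 4354 in control, 4503 and 2352 in mdx, with 2660 and 2755 in Sirt6mKO/mdx, and Rpl36a had 2106 and 1035, 1647 and 941, and 1625 and 1715. Neither was called in any comparison. Sirt6 itself overlapped between the groups (37 and 30 in the libraries labelled Sirt6mKO/mdx, against 33 and 40 in mdx and 41 and 32 in control), and a value over the whole gene does not show a deletion of some exons. Pax7 was at 2167 or more in every library.

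Markers of other cells were detected in all groups. The summed value of 9 macrophage and leukocyte markers was 125 to 155 in control, 111 to 148 in mdx, with 232 to 254 in Sirt6mKO/mdx, and that of 5 endothelial markers was 752 to 905, 401 to 407 and 608 to 622. The 7 myofibre markers summed to 6086 to 7707 in control, 1195 to 3829 in mdx, with 4169 to 8757 in Sirt6mKO/mdx, with 4 of 7 called lower in mdx (7.34% of all tested genes) and 3 of 7 called higher in Sirt6mKO/mdx than in mdx (5.62%). Those of 5 fibro-adipogenic markers summed to 3754 to 3900, 3141 to 6180 and 3523 to 4560, and those of 5 erythroid markers to 19 to 56, 7 to 14 and 39 to 91. No marker of these lists was at 0 in all libraries. In mdx compared with control all 5 fibro-adipogenic markers were above 0 (median log2 fold change 0.79, 1 called higher), and 2 of 4 tested endothelial markers were called lower. The 7 tested leukocyte markers had medians of 1.44 in mdx and 2.08 in Sirt6mKO/mdx, each against control, with 1 called higher in each and 1 called lower in mdx. The 10 MuSC markers summed to 29415 to 31706 in control, 23595 to 30584 in mdx, with 23351 to 27008 in Sirt6mKO/mdx. In mdx and in Sirt6mKO/mdx, each against control, their median log2 fold changes were -0.10 and -0.11. Of the 10, 4 and 3 were above 0. Of these markers 1, Sdc4, was called lower than control in both. In bulk samples such as these, fewer cells of a type and less RNA per cell cannot be told apart, and the part of these markers' cells in the members' values was not tested. The methods describe the removal of Sca1+, CD45+ and CD31+ cells before the sort, a step directed at leukocytes and endothelial cells among others, whose markers were still detected; the study describes the sorted population as incompletely pure.

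Levels can be compared between members only per length, and per kilobase of the annotated transcript the highest means over the 6 libraries were those of Rps14 and Rps15, at 12555 and 7866. The lowest were those of Rpl35, Rpl15 and Rpl23a, at 290.0, 341 and 350. Reads that match several genes were not counted, and 83.0% of the windows of Rpl35 and 80.0% of those of Rpl23a were shared with other genes, against 20.7% for Rps14 and 10.2% for Rps15, so the order holds only for the reads that could be counted. In control alone Rpl15, Rpl29 and Rps15a were the lowest, at 445, 479 and 526, with Rpl35 at 544 and Rpl23a at 606. The log2 fold change of a member in mdx compared with control went with its GC content, at Pearson r = -0.41 and Spearman rho = -0.42 over 75 members, which are genes and not independent samples, and share the same 4 libraries. Over all 15750 tested genes with a known transcript r was -0.21. The 25 members with the highest GC content had a median log2 fold change of -0.89 with 9 called lower, and the 25 with the lowest had -0.21 with 2 called lower, a share near the 7.34% of all tested genes. After centring each library by GC content 13 members were called lower in mdx, against 7.04% of all genes, and with transcript length as well 17 were, against 6.95%. In Sirt6mKO/mdx compared with mdx the log2 fold change went with transcript length, at r = -0.33 over the log of the length and rho = -0.41, while r was -0.27 over all genes and -0.11 (rho -0.12) over the other protein_coding genes. The 25 shortest members had a median of 0.48 and the 25 longest one of -0.03. After centring each library by GC content and transcript length no member was called in Sirt6mKO/mdx against mdx, where 4.02% of all genes were higher, and 17 were called lower in Sirt6mKO/mdx against control, where 2.19% of all genes were. The 27 members with a tract near the start had a median of -0.50 in mdx compared with control, and the 28 without one -0.61.

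**Figure D4:**
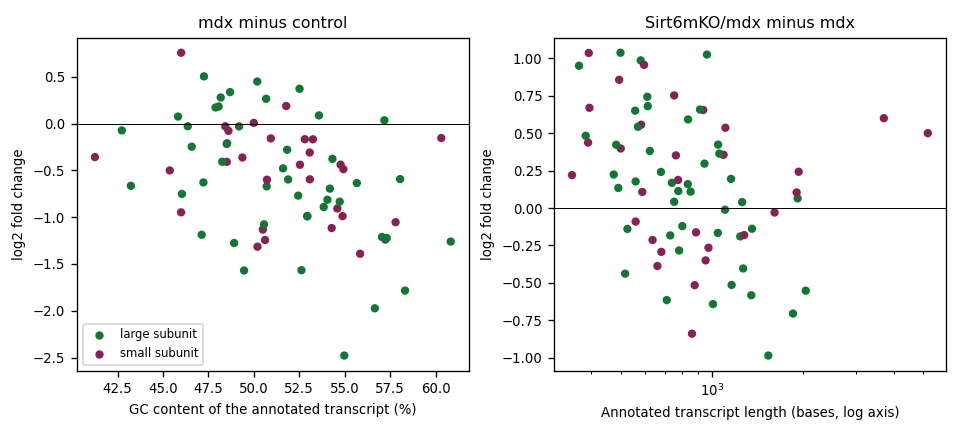
Log2 fold change of the 75 members against the GC content of the annotated transcript in mdx minus control (left) and against its length on a log axis in Sirt6mKO/mdx minus mdx (right); points are genes, green for the large and purple for the small subunit. Points fall to the right in both panels, at Pearson r = -0.41 and r = -0.33.

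Retrocopies matter to these values because reads that match several genes were not counted. The members had a median of 8 annotated copies and up to 76 (Rpl21), and in 32 of 75 members more than 50% of the 100-base windows of the transcript were shared with transcripts of other genes. Of the 43 members with at most 50% shared, 7 were lower in mdx and 3 were lower in Sirt6mKO/mdx than in control, with medians of -0.41 and -0.18. Of the 32 with more, 10 and 8 were lower, with medians of -0.68 and -0.67, and the shares over all tested genes were 7.34% and 2.68%. In the 25 members with the least sharing the median in Sirt6mKO/mdx compared with control was 0.00099, and in the 25 with the most it was -0.62. The table itself holds 384 copies, 114 of them with a mean of at least 5. Of these 4 were called higher and 3 lower in mdx compared with control, smaller shares than the 6.89% and 7.34% of all tested genes, and the median was 0.03.

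Several copies were near 0 in some libraries and high in others. In 8 copies the lowest library had a value of at most 10 and the highest one of at least 100, while no member had a value of 10 or less in any library. Rpsa-ps10, at 1381 and 1529 in control against 2118 and 638 in mdx, had 3 and 0 in Sirt6mKO/mdx. Its log2 fold change from mdx to Sirt6mKO/mdx was -9.18 (limma adjusted p 3.61e-07), which depends on the pseudocount of 1. Rpsa and all of its copies in the table summed to 5123 and 5293 in control, 4345 and 1789 in mdx, with 1784 and 1982 in Sirt6mKO/mdx. The copy Gm10036 (of Rpl11) was high in 1 library and Gm11942 (of Rplp1) in 2. Gm10036 had 748 in Sirt6mKO/mdx replicate 2 and at most 5 elsewhere, and Gm11942 had 393 in Sirt6mKO/mdx replicate 1 and 99 in control replicate 2, with at most 7 elsewhere. Rpl3-ps1 had 9 and 364 in control, 115 and 68 in mdx, with 6 and 6 in Sirt6mKO/mdx, and Gm6472 (of Rps7) had 1010 and 700 in mdx against 274 and 7 in Sirt6mKO/mdx. Rps13-ps1 had 85, 174 and 155 in replicate 1 and 0 in replicate 2 of the 3 groups. These copies were chosen after their values were seen.

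**Figure D5:**
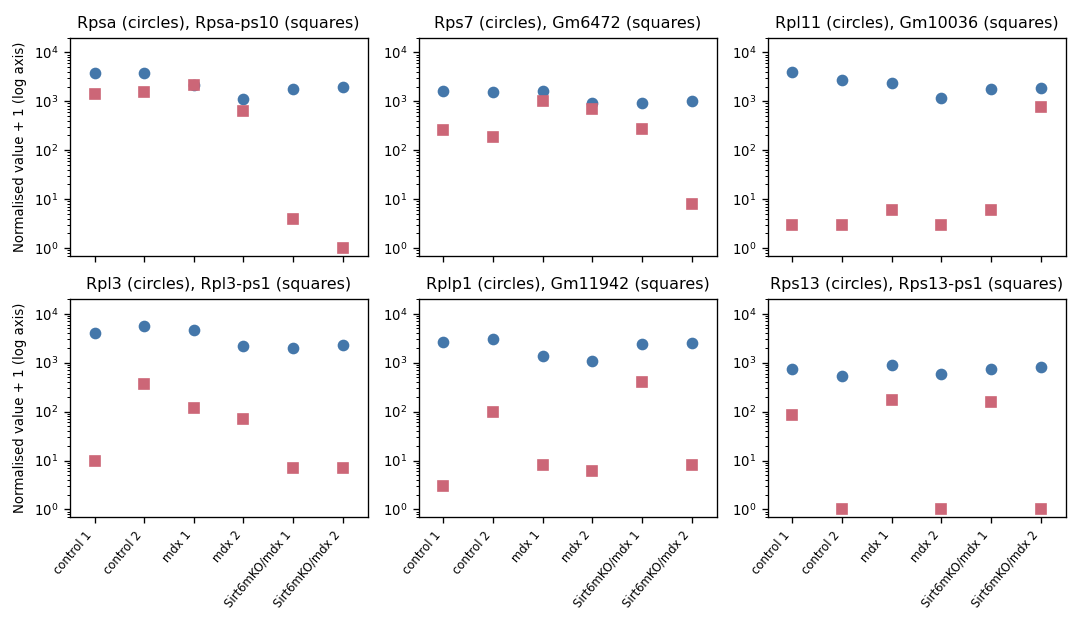
Normalised value plus 1, on a log axis, of 6 members (circles) and one copy of each (squares) in the 6 libraries. Rpsa-ps10 stands at 3 and 0 in Sirt6mKO/mdx while Rpsa has 1752 and 1957, and Rps13-ps1 stands at 0 in replicate 2 of each group.

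The introns of 29 members hold 56 annotated snoRNA genes, 36 of them in the table. snoRNAs guide the modification of rRNA and are released from the introns of their host genes. Of these 36, 13 were called higher and 1 lower in mdx than in control, and 13 were called higher in Sirt6mKO/mdx than in mdx. Each count is 36.1% of the 36, against 24.8% and 40.5% of the 222 other tested snoRNA genes and 6.89% and 5.62% of all tested genes. In Sirt6mKO/mdx compared with control 23 were called higher and none lower, with a median log2 fold change of 1.93, while the 22 host genes had one of -0.53. Snord58b, in Rpl17, had 607 and 681 in control, 1994 and 1700 in mdx, with 7983 and 5676 in Sirt6mKO/mdx; it was chosen after its values were seen. Of the other snoRNA genes 58.6% were called higher in the same comparison, against 63.9% of those in members, and their median was 1.98. All snoRNAs together took 18.1% and 12.4% of the values in control, 17.8% and 12.2% in mdx, with 26.7% and 28.2% in Sirt6mKO/mdx. The cause of this difference between hosts and their snoRNAs was not tested.

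The other genes with TOP mRNAs, a list of 22 in the table, had 2 members called higher and 2 lower in mdx than in control, which is near the 6.89% and 7.34% of all tested genes, and a median of -0.15. Fau, which encodes a ribosomal protein of the 40S subunit joined to a ubiquitin-like protein, had 1039 and 798 in control, 407 and 278 in mdx, with 625 and 495 in Sirt6mKO/mdx, and fell by 1.43 on the log2 scale in mdx (limma adjusted p 0.00219). Eef1g also fell, and Vim and Eif3e rose. Eef2 and Eef1a1, the elongation factors, had log2 fold changes of -0.86 and -0.10 and were not called. Snhg1 and Gas5, noncoding snoRNA hosts with TOP ends, were called higher in Sirt6mKO/mdx than in mdx, at 1.38 and 1.20, and in that comparison none of the list was called lower. Eif3f, at -0.98 (limma adjusted p 0.021), missed the size limit. In Sirt6mKO/mdx compared with control 3 of the 22 were called higher and 2 lower, against 5.19% and 2.68% of all tested genes.

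The list of paralogues held 6 tested genes, among them Rps3a1, whose symbol does not match the rule. Rps27l had 103 and 103 in control, 525 and 274 in mdx, with 255 and 436 in Sirt6mKO/mdx, a log2 fold change of 1.87 in mdx (limma adjusted p 0.0017), and Rpl22l1, a paralogue of Rpl22, rose by 1.16 (limma adjusted p 0.0212). Both were also called higher in Sirt6mKO/mdx than in control. Rpl3l, a muscle form of Rpl3, had 54 and 75 in control, 17 and 15 in mdx, with 54 and 26 in Sirt6mKO/mdx, and fell by 1.93 in mdx (limma adjusted p 0.0246). Rpl7l1 was lower in Sirt6mKO/mdx than in control, and no paralogue was called between Sirt6mKO/mdx and mdx. Rpl36al, a paralogue of Rpl36a, was not called in any comparison. Rps3a1, the gene of RPS3A, had 1986 and 1560 in control, 1808 and 1568 in mdx, with 943 and 879 in Sirt6mKO/mdx. Its log2 fold changes of -0.89 against mdx and -0.95 against control had limma adjusted p of 0.0409 and 0.0298 and missed the size limit.

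The proteins of the mitochondrial ribosome were listed for comparison. Of 75 mitochondrial ribosomal protein genes, 11 were called higher and 1 lower in mdx than in control, against 6.89% and 7.34% of all tested genes, with 64 above 0 and a median log2 fold change of 0.66; the difference from the members was not tested. Mrpl44 and Mrpl40 were higher by 2.94 and 1.83, and Mrps6 fell by 2.67 on the log2 scale (limma adjusted p 0.000154). In Sirt6mKO/mdx compared with mdx 1 was higher and none lower, against 5.62% and 2.54% of all tested genes, with a median of -0.29. Of 9 chaperones that bring ribosomal proteins to the nucleus or the pre-ribosome, Bccip was higher and Aamp lower in mdx than in control. Heatr3 was lower in Sirt6mKO/mdx than in mdx. Each is 1 of 9, against 6.89% higher and 7.34% lower of all tested genes in mdx. In Sirt6mKO/mdx compared with mdx 2.54% were lower. Of 33 initiation factors, Eif1 and Eif4a1 were lower in mdx, at -1.33 and -1.07. That share is no larger than the 7.34% of all tested genes. In Sirt6mKO/mdx compared with mdx Eif1 was higher, at 1.02, and Eif3d and Eif3c were lower. These are 1 and 2 of 33, against 5.62% higher and 2.54% lower among all tested genes. Of 28 genes of the mTORC1 pathway, 1 was called lower in mdx and 1 higher in Sirt6mKO/mdx than in mdx. These are no larger shares than the 7.34% and 5.62% of all tested genes. Both calls were of Sesn2, an inhibitor that senses leucine. It had 133 and 90 in control, 14 and 16 in mdx, with 59 and 73 in Sirt6mKO/mdx.

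Among other genes, the pattern most like that of Rpl3, a protein near the peptidyl transferase centre, was that of Mgme1, Arf1 and Pxk, with Pearson r of 0.997, 0.993 and 0.986 over the 6 libraries. Rpl3 had 4110 and 5702 in control, 4723 and 2171 in mdx, with 1995 and 2290 in Sirt6mKO/mdx. Among members Rpl6, Rpl14 and Rpl10a were the most alike, with r from 0.96 to 0.97. Rps27a, which encodes ubiquitin joined to a 40S protein, had a log2 fold change of -0.22 in mdx and -0.43 in Sirt6mKO/mdx, each compared with control, and was not called.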

How the data were processed

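The authors sorted MuSCs by FACS, isolated total RNA, depleted rRNA and sequenced Ion Torrent libraries; per the labels FastQC 0.10.1, STAR 2.4.2a, featureCounts 1.4.5-p1 and DESeq2 1.6.0 were used on mm10/GRCm38.p5, and the methods describe counting reads that overlap exons while leaving out reads that match several genes. Whether strand was used in counting is not given in the sources used here. The deposited values are a score: counts divided by a size factor per library and rounded by the authors, so no count test was run.

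Here log2(value + 1) was fitted with limma 3.58.1 (R 4.3.3; trend prior variance, two-sided moderated test, Benjamini-Hochberg over 15915 genes with a mean of at least 5) on all 6 libraries. The fit was tested on simulated data with 15915 genes and 200 changed: 69.9% of 4-fold and 8.33% of 2-fold changes were found, with 7 calls among unchanged genes. The genes were drawn independently with one dispersion for all. Shifts shared by the members, such as that between the mdx libraries, were therefore not simulated, and these rates do not cover them. Transcripts, GC content, copies (annotated pseudogenes, or single-exon protein_coding rows, sharing at least 25% of their 21-base words with a member, and rows named as a member's pseudogene) and snoRNA positions came from GENCODE M21 (GRCm38); starts from RefSeq (GRCm38.p6). Of the identifiers, 98.5% were in GENCODE. Named members were, in each comparison, the 5 highest and 5 lowest log2 fold changes and every called member, the 3 highest and 3 lowest levels per kilobase, and 16 fixed genes; of the other lists, called genes or up to 3 with the largest change. Members and lists were chosen with earlier results of these data known. Gene lists were written by hand. A few genes that the rule would name are not reported here by name; they remain in all counts.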

Additional observations from a re-analysis of the deposited data

How the results depend on the processing

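Counts of called members depended on the filter on low values and on the prior variance. With no minimum mean, 4 members were lower in mdx than control, 0 were higher in Sirt6mKO/mdx than mdx, and 0 were lower and 0 higher in Sirt6mKO/mdx than control; with one prior variance for all genes the counts were 1, 0, 0 and 0. Few genes of any kind were called there: with no minimum mean 2.54% of all genes were lower in mdx, 0.685% higher in Sirt6mKO/mdx than mdx, and 0.231% lower and 0.751% higher than control, and with one prior variance 2.26%, 0, 0.138% and 0.408%. The cause was not tested. Scaled to equal totals, 0 members were higher and 12 lower in Sirt6mKO/mdx than mdx (median -0.46), and 39 were lower and 0 higher than control (median -1.06), while 18.4% and 16.9% of all genes were lower in these comparisons and their median was -0.58 in both. Centred on the members' median, 1 was higher and 1 lower in mdx than control (median 0.18), 0 were higher in Sirt6mKO/mdx than mdx, and 0 were lower than control (median -0.051). Centred by GC content, 0 were higher in Sirt6mKO/mdx than mdx; with transcript length as well, 0 were higher than mdx, and 17 were lower and 0 higher than control. Of the members with at most 50% of windows shared, 7 were lower in mdx and 3 lower in Sirt6mKO/mdx than control; fewer members entered this count. Uniqueness in the genome was not run, since only transcripts were used. GC, length, shared windows, the crossed numbers and the row named Rpl24 were chosen after seeing the data; with that row, 18 were lower in mdx and 3 higher in Sirt6mKO/mdx than mdx.

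Leaving out 1 library gave 4 to 27 members lower (4.13% to 7.45% of all genes) and 0 to 1 higher in mdx than control (medians from -0.88 to -0.16), 0 to 2 higher in Sirt6mKO/mdx than mdx (medians from -0.25 to 0.61), and 0 to 13 lower (0.289% to 2.9% of all genes) and 0 to 1 higher in Sirt6mKO/mdx than control. The 4 and the 27 came without mdx replicate 2 and 1, and 7 without control replicate 1; a group then had 1 library, assumed to vary like the others. In these fits members called higher in mdx than control or in Sirt6mKO/mdx than mdx were no larger a share than among all genes. Without mdx replicate 1 the log2 fold changes of Rpl39 (-0.062; 0.74 without mdx replicate 2) and Rpl26 (-0.091; 0.99) in mdx against control, and of Rpl29 (0.14; -1.37) in Sirt6mKO/mdx against mdx, changed sign. Of 620 alternative fits of the named members' 31 calls, 196 (31.6%) lost the call; 10 fits of uncalled values gained one. Same-numbered libraries did not deviate together in every pair of groups (control and mdx, control and Sirt6mKO/mdx, mdx and Sirt6mKO/mdx: r = -0.13, 0.12 and 0.0093 over all tested genes, and -0.081, 0.29 and -0.42 over the members), although copies such as Rps13-ps1 and Rps15a-ps8 were near 0 in replicate 2 of every group. With the replicate block 18 members were lower in mdx than control, 3 were higher in Sirt6mKO/mdx than mdx, and 14 were lower and 1 higher than control; the shares of all genes were 7.84%, 6.6%, 2.95% and 5.87%. With the mdx numbers crossed in the block the counts were 17, 2, 13 and 1 (7.75%, 6.04%, 2.79% and 5.34% of all genes).

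The values carry no read totals, so depth per library is unknown; the lowest member value in any library was 76.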
